A study of Mus musculus with 6 samples.

Results

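The genes described are 8 G protein-coupled receptors of the pancreatic islet, Glp1r, Gipr, Gcgr, Gpr119, Ffar1, Chrm3, Sstr3 and Adra2a, found by gene symbol among the 55487 genes of the count table. All 8 were in the table with 1 gene identifier each, and 7 of them had enough counts to be tested, Gcgr being the exception. RNA-seq was made in 2 groups of 3 libraries from MIN6, a murine beta cell line that secretes insulin. One group had been transfected with full-length parathyroid hormone-related protein (PTHrP, the product of Pthlh) and the other with the DsRed vector, an empty vector per the labels. Both groups received their plasmid with Lipofectamine at confluency, both were grown in serum-supplemented DMEM, and RNA was taken within 3 days, so expression of the plasmid was transient, and no sorting of transfected cells is stated. No untransfected library was analysed here.

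Islet receptors of this class read the hormones, nutrients and nerve signals that set how much insulin a beta cell releases at a given glucose level. Receptors that couple to Gs raise cAMP and amplify secretion, those that couple to Gq raise calcium through phospholipase C, and those that couple to Gi lower cAMP and hold secretion back. PTHrP itself acts on a Gs-coupled receptor of the same family as the incretin receptors. Among the 8 receptors, Glp1r, Gipr and Gcgr bind the peptides GLP-1, GIP and glucagon and couple to Gs, as does Gpr119, which binds lipid amides. Ffar1 binds long-chain fatty acids and Chrm3 binds acetylcholine, and both couple to Gq. Sstr3 binds somatostatin and Adra2a binds adrenaline and noradrenaline, and both couple to Gi.

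The libraries held 84427033 to 94613684 gene counts, and 21141 genes were tested. Pthlh had 697, 553 and 797 counts in the PTHrP libraries, against 0, 4 and 8 counts in the DsRed libraries, so the label of each library was borne out by the transfected gene. Markers of the beta cell were abundant, with Ins2 at 33253 to 42677 CPM over the 6 libraries. The summed level of the 10 beta cell markers was 49036 to 55523 CPM in PTHrP and 50497 to 62516 CPM in DsRed. Of the other islet markers, Gcg was at 135 to 175 CPM, while Sst and Ppy did not exceed 0.139 and 0.118 CPM in any library. One library stood apart: PTHrP replicate 2 had a quality weight of 0.338 (limma), the lowest of the 6, and without it 213 genes passed in place of 9, so estimates without it are given beside the main results. The replicates are not stated to be separate cultures, so p-values measure the spread between these libraries, which may be technical.

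The receptors covered a range of levels from one of the most abundant transcripts of the cell to almost none. Levels of different genes are given per length, as RPKM, the CPM (share of a library's counts, scaled with TMM factors) divided by exon length in kilobases. Glp1r, the GLP-1 receptor, averaged 216 ± 9.44 RPKM in PTHrP and 222 ± 5.58 RPKM in DsRed (SD, n = 3 each). Its share of a library's counts was 0.123% to 0.131%, and it lay at the 99.5 percentile of the tested genes that have a length. It was 4.76 times as high as the next of the 8 receptors over all 6 libraries, and its range did not meet that of any other.

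Ffar1 and Adra2a came next, with ranges that overlapped over the 6 libraries. Ffar1 averaged 43.3 ± 1.96 RPKM in PTHrP and 48.8 ± 0.796 RPKM in DsRed, and Adra2a averaged 45.8 ± 1.04 RPKM in PTHrP and 45.6 ± 1.48 RPKM in DsRed. Gipr, the GIP receptor, averaged 16.1 ± 2.57 RPKM in PTHrP and 18.1 ± 2.58 RPKM in DsRed. Sstr3 followed with 11.3 ± 0.514 RPKM in PTHrP and 13.4 ± 0.869 RPKM in DsRed. The ranges of these last receptors overlapped over the 6 libraries.

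The muscarinic receptor gene Chrm3 and the lipid amide receptor gene Gpr119 were much lower and also overlapped in range. Chrm3 averaged 2.16 ± 0.317 RPKM in PTHrP and 2.06 ± 0.125 RPKM in DsRed. Gpr119 averaged 1.57 ± 0.284 RPKM in PTHrP and 1.38 ± 0.200 RPKM in DsRed. Gcgr, the glucagon receptor gene, had 10, 6 and 0 counts in the PTHrP libraries, against 0, 6 and 19 counts in the DsRed libraries. It was thus at 0 in 1 library of each group, at the limit of what these depths can show.

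The 8 receptors were set beside 116 other G protein-coupled receptors of hormones, transmitters and lipids, in lists sorted by the G protein they couple to. Of the 124 receptors, Glp1r was the highest and 5 of the 8 were among the 7 highest by the mean of all 6 libraries. Gabbr2, a subunit of the GABA-B receptor, was second with 58.5 ± 3.17 RPKM in PTHrP and 58.4 ± 2.76 RPKM in DsRed, and Crhr1, a receptor for corticotropin-releasing hormone, came next with 47.5 ± 3.01 RPKM in PTHrP and 45.9 ± 2.81 RPKM in DsRed. Ffar1, Adra2a, Gipr and Sstr3 held ranks 4 to 7 by the mean of all 6 libraries. Adra2c, another adrenergic receptor, was close behind Sstr3 at rank 8. It averaged 12.6 ± 0.637 RPKM in PTHrP, above Sstr3 at 11.3 RPKM there, and 11.8 ± 0.537 RPKM in DsRed, below Sstr3 at 13.4 RPKM. Chrm3 was at rank 19, Gpr119 at rank 27 and Gcgr at rank 76. Pth1r, the gene of a Gs-coupled receptor of PTHrP, was at rank 58. It averaged 0.0519 ± 0.0146 RPKM in PTHrP and 0.0882 ± 0.0345 RPKM in DsRed, and shares 95 exon bases with Myl3 on the opposite strand. In the list of 116, 23 receptors reached a mean of 1 RPKM, against 7 of the 8.

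**Figure D1:**
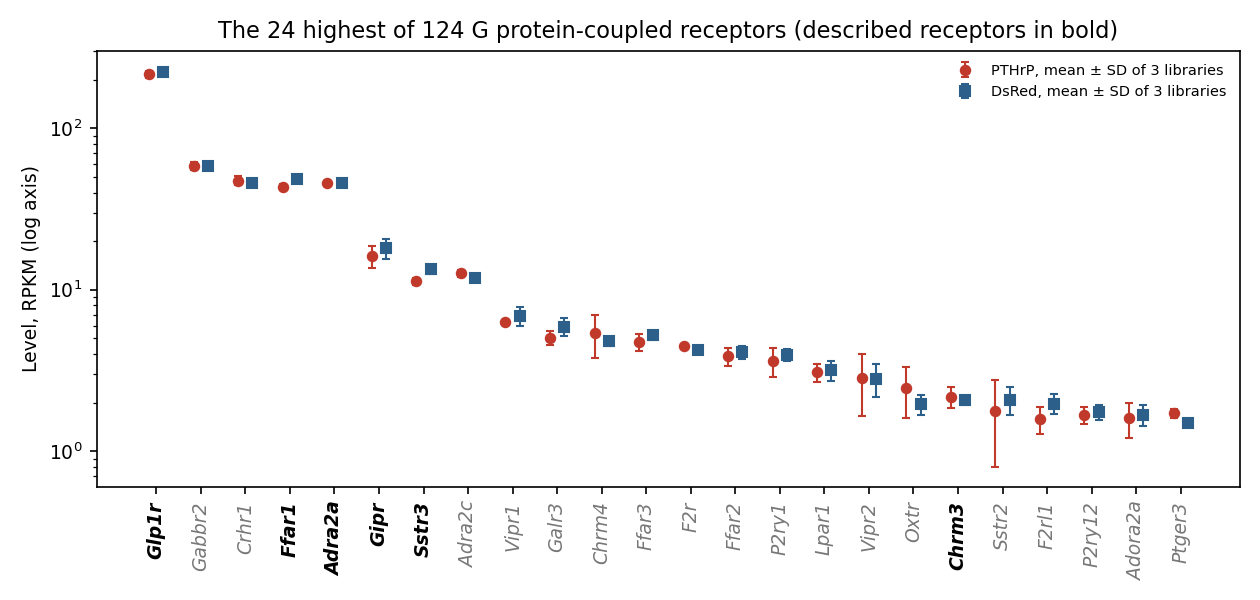
Levels of the 24 highest of 124 G protein-coupled receptors in RPKM on a log axis, as mean and SD of 3 libraries, PTHrP as red circles and DsRed as blue squares, with the described receptors in bold. Glp1r stands above all others at 216 RPKM in PTHrP and 222 RPKM in DsRed, and the points of both groups lie close together for nearly every receptor.

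All 8 receptors are annotated as protein-coding genes, and none shares exon bases with another annotated gene. In GRCm38 positions, Glp1r spans 30901817 to 30940791 of chromosome 17, Sstr3 spans 78537008 to 78544685 of chromosome 15, and Adra2a spans 54044151 to 54048982 of chromosome 19. On chromosome 7, Gipr spans 19156061 to 19166127 and Ffar1 spans 30857390 to 30861564. Gcgr spans 120530699 to 120538986 of chromosome 11, Chrm3 spans 9875486 to 10360847 of chromosome 13, and Gpr119 spans 48667979 to 48674478 of chromosome X. Although 9 other annotated genes lie within the span of Glp1r, Gcgr or Chrm3, the exons of these genes cover 0 bases of receptor exons.

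The upstream sequence of 3 receptors is shown, Sstr3 and Ffar1 because their groups lay apart in the comparison that follows, and Glp1r because it had the highest level. Each stretch comes from the 250 bases before a RefSeq gene start on GRCm38.p6 and leaves out bases that an annotated exon covers. It is given 5′ to 3′ on the strand of the gene, in lower case, with motif matches in capitals. The Sstr3 stretch precedes an internal start and lies inside the annotated span of Sstr3, 78537008 to 78544685.
Ffar1, chr7:30861565-30861720, minus strand: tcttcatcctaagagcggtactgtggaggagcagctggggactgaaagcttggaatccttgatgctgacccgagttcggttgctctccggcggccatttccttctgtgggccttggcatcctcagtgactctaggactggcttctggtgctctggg
Sstr3, chr15:78541407-78541656, minus strand, the second of its 2 starts: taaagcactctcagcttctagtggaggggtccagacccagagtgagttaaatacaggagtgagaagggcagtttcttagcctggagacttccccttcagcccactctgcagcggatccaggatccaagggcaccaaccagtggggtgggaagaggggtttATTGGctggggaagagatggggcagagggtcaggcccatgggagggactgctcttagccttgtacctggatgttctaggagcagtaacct
Glp1r, chr17:30901617-30901816, plus strand: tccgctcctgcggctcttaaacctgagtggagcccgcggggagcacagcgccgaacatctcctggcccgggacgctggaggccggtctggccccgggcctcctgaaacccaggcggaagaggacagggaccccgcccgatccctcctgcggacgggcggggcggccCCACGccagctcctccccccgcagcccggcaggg
Both strands were searched for the cAMP response element TGACGTCA, its core TGACG, the letters CCACG that end the ER stress response element, the CCAAT box and the TATA letters TATAAA. The core TGACG is also contained in the full element. Glp1r held 1 match to CCACG, the Sstr3 stretch held 1 CCAAT box on the opposite strand, written as ATTGG, and the Ffar1 stretch held none of these letters. Of 32851 gene starts in the table, 28.3% held CCACG in the 250 bases upstream, 33.9% a CCAAT box, 17.8% the core TGACG, 12.4% the TATA letters and 1.55% the full cAMP element. Across the full 250 bases, Gpr119, Adra2a and the other start of Sstr3 held 1 core TGACG each. CCACG was found 2 times for Adra2a and 1 time each for Chrm3, Glp1r and that other start of Sstr3. The TATA letters were found 1 time, for Adra2a. The windows of Adra2a and of that other start of Sstr3 had 0 bases outside annotated exons, so their matches lie in exon sequence. No start of the 7 receptors with an entry in the table held the full element. Gipr had no entry.

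In PTHrP against DsRed no receptor passed the test over all genes, where 9 of 21141 genes or 0.0426% passed, 0.0189% higher and 0.0237% lower (edgeR quasi-likelihood test, Benjamini-Hochberg adjusted p under 0.05). At an unadjusted p under 0.05 there were 2 of the 7 tested receptors, Sstr3 and Ffar1, both lower in PTHrP, beside 3.98% of all tested genes that were lower at that level, 4.92% that were higher and 8.9% in either direction. These are levels of RNA in bulk samples, in which fewer cells of a kind and less RNA per cell cannot be told apart. DESeq2 and limma-voom called 0 receptors too, with the same 2 under an unadjusted 0.05. The median log2 fold change of the 7 receptors was -0.04, against -0.01 over all genes tested, and 3 were positive and 4 negative.

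**Figure D2:**
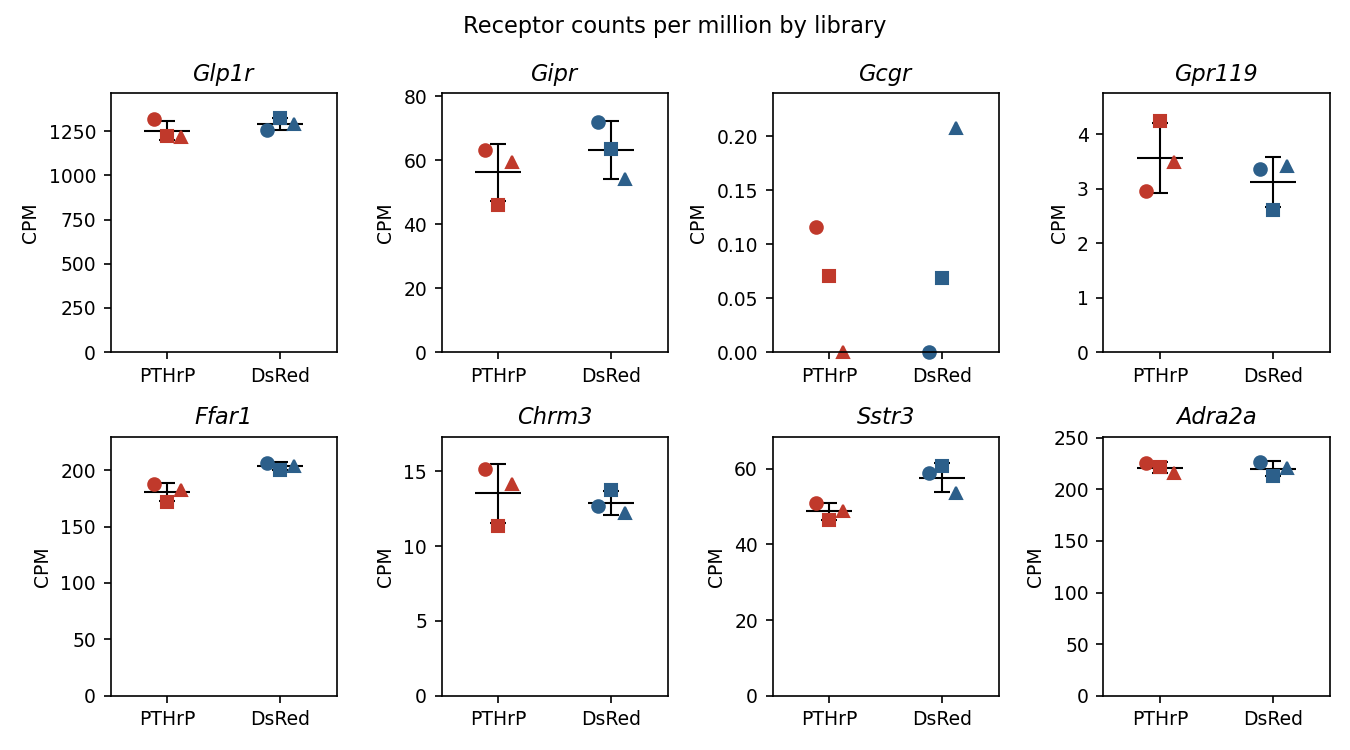
Level of each of the 8 receptors in every library in TMM-scaled CPM, PTHrP on the left in red and DsRed on the right in blue, with replicates 1, 2 and 3 as circle, square and triangle and the mean and SD in black (left out for Gcgr, which is at 0 in 2 libraries). Each axis starts at 0. In Ffar1 and Sstr3 all PTHrP points lie below all DsRed points, and in the other receptors the groups overlap.

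Sstr3, which brings the signal of somatostatin to the cell and lowers cAMP, lay lower in PTHrP. It had 50.8, 46.4 and 48.9 CPM in PTHrP, against 58.8, 60.8 and 53.5 CPM in DsRed. All 3 PTHrP libraries lay below all 3 DsRed libraries, with DsRed replicate 3 the nearest to them. Groups that lay apart with PTHrP lower were seen in 7.88% of the genes tested, with PTHrP higher in 8.45% and either way in 16.3%. Its log2 fold change was -0.24 (SE 0.07, 95% interval -0.40 to -0.08), a difference of -15.6% (edgeR quasi-likelihood test, unadjusted p = 0.00617, adjusted p = 0.370).

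Ffar1, the fatty acid receptor that amplifies glucose-stimulated secretion, showed the other such difference. It had 188, 172 and 182 CPM in PTHrP, against 207, 200 and 204 CPM in DsRed. The groups lay apart again, and here the 3 DsRed libraries were close together and PTHrP replicate 2 was the lowest of all. For Ffar1 the estimate on the log2 scale was -0.17 (SE 0.06, 95% interval -0.29 to -0.05), a difference of -11.2% (edgeR quasi-likelihood test, unadjusted p = 0.0101, adjusted p = 0.388).

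Over the fits that left out 1 library each, the log2 fold change of Sstr3 ranged from -0.30 to -0.20 and that of Ffar1 from -0.20 to -0.13, and neither passed in any of them. Without PTHrP replicate 2 the estimates were -0.21 for Sstr3 and -0.13 for Ffar1. The unadjusted p stayed under 0.05 for both in all 6 of these fits, 0.00319 to 0.0417 for Sstr3 and 0.00891 to 0.0436 for Ffar1. The smallest adjusted p of the alternatives was 0.0736 for Sstr3 and 0.115 for Ffar1, both with library quality weights, where 16.8% of all genes had an unadjusted p under 0.05.

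The incretin receptor genes themselves did not pass the test. Glp1r had 1316, 1225 and 1218 CPM in PTHrP, against 1258, 1323 and 1293 CPM in DsRed. The groups overlapped, as PTHrP replicate 1 lay among the DsRed libraries. Its estimate was -0.04 on the log2 scale (SE 0.05, adjusted p = 0.861), -0.02 without PTHrP replicate 2, and the 95% interval reached from -10.3% to 5.01%.

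Gipr had 63.2, 46.1 and 59.3 CPM in PTHrP, against 71.9, 63.6 and 54.0 CPM in DsRed. The spread within each group was wider than for Glp1r, with PTHrP replicate 2 lowest and DsRed replicate 3 below the other PTHrP libraries. The log2 estimate was -0.17 (SE 0.13, adjusted p = 0.757), and the 95% interval ran from -0.47 to 0.13. Leaving out PTHrP replicate 2 gave -0.04, leaving out DsRed replicate 1 gave -0.07, and leaving out DsRed replicate 3 gave -0.27.

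Adra2a, the receptor through which adrenaline holds insulin release back, had the smallest difference of the 7. It had 226, 221 and 216 CPM in PTHrP, against 227, 213 and 221 CPM in DsRed. The libraries of both groups were interleaved. The log2 estimate was 0.01 (SE 0.05, adjusted p = 0.981), also 0.01 without PTHrP replicate 2 but just below 0 with upper-quartile scaling, and the 95% interval reached from -7.40% to 8.92%, so a change of the size estimated for Sstr3 or Ffar1 lies outside it.

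Chrm3, the muscarinic receptor for acetylcholine of the islet nerves, had 15.1, 11.3 and 14.1 CPM in PTHrP, against 12.7, 13.8 and 12.2 CPM in DsRed. PTHrP replicate 2 was again the lowest library and the other PTHrP libraries were the highest. Its log2 estimate was 0.07 with a 95% interval of -0.19 to 0.33 (adjusted p = 0.908), and leaving out PTHrP replicate 1 gave -0.02, and leaving out PTHrP replicate 2 gave 0.19.

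Gpr119, a Gs-coupled receptor for lipid amides, had 2.95, 4.23 and 3.50 CPM in PTHrP, against 3.37, 2.60 and 3.41 CPM in DsRed. The highest value was that of PTHrP replicate 2 and the groups overlapped. Its log2 estimate was 0.19 with a 95% interval of -0.22 to 0.60 (adjusted p = 0.823), the widest interval of the 7. Leaving out PTHrP replicate 1 gave 0.30, leaving out PTHrP replicate 2 gave 0.05, and leaving out DsRed replicate 2 gave 0.07.

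Gcgr had too few counts for the test. Summed over 3 libraries it had 16 counts in PTHrP and 25 in DsRed, a library-scaled ratio of 0.638 with an exact 95% interval of 0.318 to 1.24, which includes 1 and reflects counting error alone. Without DsRed replicate 3, which held most of the DsRed counts, the ratio was 1.74, without PTHrP replicate 1 it was 0.354, and without PTHrP replicate 2 it was 0.586.

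**Figure D3:**
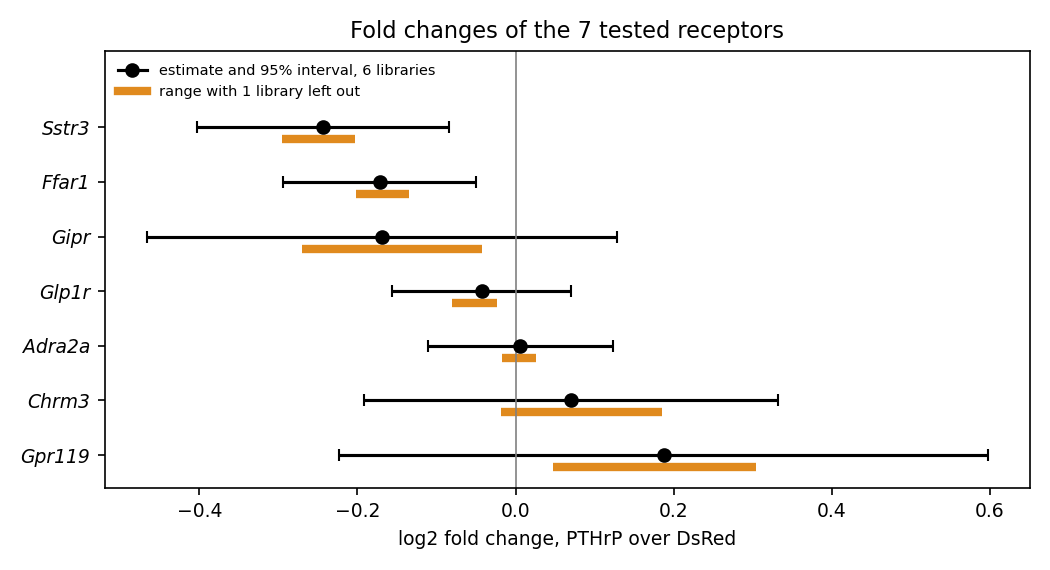
Log2 fold change of PTHrP over DsRed for the 7 tested receptors, with the estimate and its 95% interval from all 6 libraries in black and the range of the estimates with 1 library left out in orange. The intervals of Sstr3 and Ffar1 lie below 0, that of Adra2a is narrow around 0, and those of Gipr, Chrm3 and Gpr119 are wide.

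Ratios between receptors within a library do not depend on how libraries are scaled. The ratio of Ffar1 to Adra2a in RPKM was 0.962, 0.899 and 0.977 in PTHrP, against 1.06, 1.09 and 1.07 in DsRed. Adra2a was therefore the higher of the pair in each PTHrP library and Ffar1 in each DsRed library, with means of 0.946 ± 0.0416 in PTHrP and 1.07 ± 0.0177 in DsRed (SD, n = 3 each). The ratio of Sstr3 to Adra2a, both Gi-coupled receptors, was 0.252, 0.235 and 0.253 in PTHrP, against 0.290, 0.320 and 0.271 in DsRed, and the groups lay apart there too. The ratio of Gipr to Glp1r averaged 0.0747 ± 0.0103 in PTHrP and 0.0818 ± 0.0129 in DsRed, and those groups overlapped. The pairs were chosen after their values were seen, so no test is given.

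**Figure D4:**
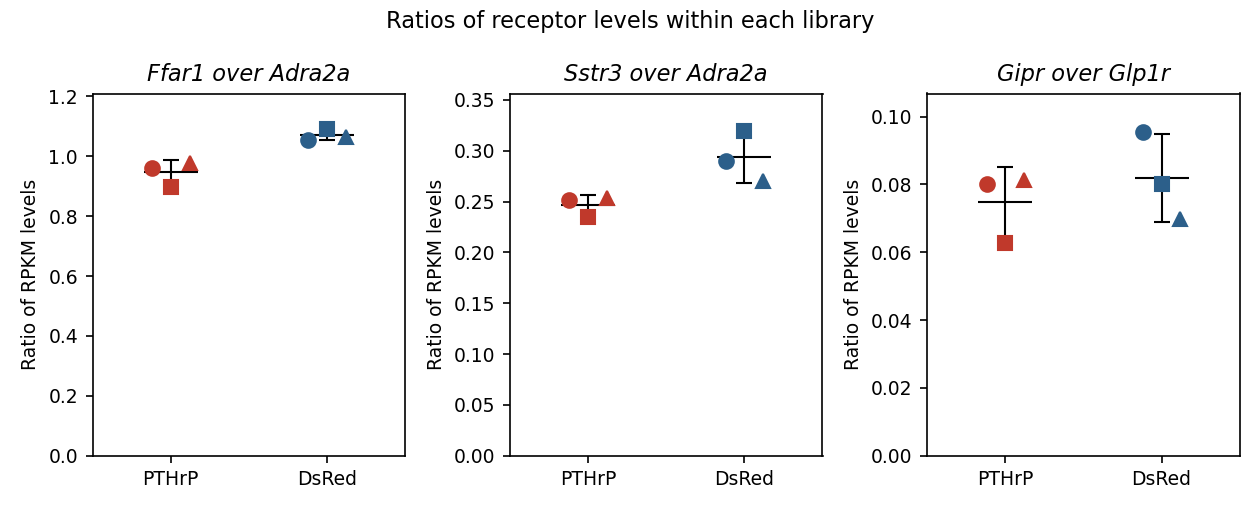
Ratio of RPKM levels of 2 receptors within each library, PTHrP on the left in red and DsRed on the right in blue, with replicates 1, 2 and 3 as circle, square and triangle and the mean and SD in black. Ffar1 over Adra2a is below 1 in every PTHrP library and above 1 in every DsRed library, Sstr3 over Adra2a is lower in every PTHrP library, and Gipr over Glp1r overlaps.

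Summed by the G protein they couple to, the receptor levels differed little between the groups. The Gs-coupled receptors summed to 246, 226 and 228 RPKM in PTHrP, against 239, 247 and 240 RPKM in DsRed, of which Glp1r was the bulk. The Gi-coupled receptors summed to 58.6, 56.5 and 56.0 RPKM in PTHrP, against 60.5, 58.1 and 58.2 RPKM in DsRed. The Gq-coupled receptors summed to 47.4, 43.0 and 45.9 RPKM in PTHrP, against 51.6, 50.2 and 50.7 RPKM in DsRed, and here the PTHrP libraries all lay lower, since Ffar1 made up most of the sum. Glp1r alone was 63.5% to 64.8% of the level of all 8 in PTHrP and 61.7% to 64.1% in DsRed.

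Other genes with library profiles close to those of Sstr3 and Ffar1 were sought among 11776 genes by the root mean square difference of centred log2 CPM over the 6 libraries. The nearest to Sstr3 were Zfp597, a zinc finger gene, Ung, a uracil DNA glycosylase gene, and Pdp1, a pyruvate dehydrogenase phosphatase gene, at 0.0205, 0.0249 and 0.0297. The nearest to Ffar1 were Akap8, an A kinase anchoring protein gene, Cdc73, a subunit gene of the PAF complex, and Sel1l, a gene of ER-associated degradation, at 0.00750, 0.0148 and 0.0163. These genes had log2 fold changes of -0.28 to -0.17 and none passed the test over all genes. They were chosen by profile over the same libraries, so fold changes near those of Sstr3 and Ffar1 follow from the choice.

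Of the receptors outside the 8, none passed with all 6 libraries, and 1, Oxtr, passed without PTHrP replicate 2. In the fit without that library 213 of all 22316 tested genes passed, 142 higher and 71 lower. Of 32 other receptors coupled mainly to Gs 16 were tested, with a median log2 fold change of -0.12, of 36 coupled to Gq 26 were tested, with a median of 0.05, and of 48 coupled to Gi or Go 30 were tested, with a median of -0.14. Of these 72 tested receptors, 0 passed in either direction by edgeR, DESeq2 or limma-voom. At an unadjusted p under 0.05 there were Crhr2 and Mtnr1a, both lower, and Cckar, higher (edgeR quasi-likelihood test). Over all tested genes 8.9% were under that level in either direction. The urocortin receptor gene Crhr2 had 0.430, 0.400 and 0.336 CPM in PTHrP, against 0.960, 1.24 and 0.568 CPM in DsRed (log2 fold change -1.25, adjusted p = 0.370). The melatonin receptor gene Mtnr1a was lower still, averaging 0.0296 CPM in the PTHrP libraries and 0.208 CPM in the DsRed libraries (adjusted p = 0.370), and the cholecystokinin receptor gene Cckar averaged 0.613 CPM in the PTHrP libraries, against 0.306 CPM in the DsRed libraries (adjusted p = 0.535). The next members by p were Sctr (-1.37) and Drd1 (0.72) of the Gs list, Tacr1 (2.33) and Bdkrb2 (-1.72) of the Gq list, and Ptger3 (0.20) and Hcar2 (-1.91) of the Gi list, as log2 fold changes, and all but Ptger3 were under 1 CPM in both groups. Oxtr, the Gq-coupled oxytocin receptor gene, had 13.5, 7.05 and 14.6 CPM in PTHrP, against 9.64, 7.95 and 10.4 CPM in DsRed. PTHrP replicate 2 was the lowest of the 6 libraries and the other PTHrP libraries were the highest. In the fit without that library the difference of Oxtr was 0.59 on the log2 scale (SE 0.12, adjusted p = 0.0273). In that fit 16 receptors of the Gs list, 28 of the Gq list and 34 of the Gi list were tested. The Gq and Gi medians thus include genes not tested with all libraries. The medians there were -0.17 for the Gs list, -0.06 for the Gq list, against 0.05 with all libraries, and -0.19 for the Gi list. Crhr2, Mtnr1a and Cckar were then at -1.27, -2.61 and 1.30.

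Of the G proteins that carry the receptors' signals, 0 passed. Of the 12 alpha subunits tested, Gnai1, an inhibitory subunit, had 13.1, 12.7 and 12.9 CPM in PTHrP, against 11.6, 10.2 and 10.3 CPM in DsRed. The groups lay apart, at 0.27 on the log2 scale (SE 0.10, adjusted p = 0.443). Groups lay apart either way in 16.3% of all tested genes. Gnai2, also inhibitory, averaged 645 CPM in PTHrP and 666 CPM in DsRed, at -0.05 on the log2 scale. The inhibitory Gnai3 averaged 585 CPM in PTHrP and 588 CPM in DsRed, at -0.01. Gnas, the stimulatory subunit used by the incretin receptors, had 136, 120 and 127 CPM in PTHrP, against 144, 143 and 138 CPM in DsRed, which is -0.15 on the log2 scale (SE 0.06, adjusted p = 0.504). All PTHrP libraries were below all DsRed libraries, and exons of Gnas overlap those of the opposite-strand genes Nespas over 988 bases and Gm20721 over 1469 bases, so its counts are uncertain. Gnaq, a subunit of the Gq-coupled receptors, was at -0.17 (adjusted p = 0.674), with 60.9 CPM in PTHrP replicate 2 against 79.1 to 84.5 CPM in the other 5 libraries. Gna11, another subunit of these receptors, averaged 272 CPM in PTHrP and 266 CPM in DsRed, at 0.04 on the log2 scale. The median of the 12 was -0.04. Without PTHrP replicate 2, Gnai1 was at 0.29, Gnas at -0.11 and Gnaq at -0.04, and 0 alpha subunits passed.

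Of 13 beta and gamma subunits tested, 0 passed and 0 had an unadjusted p under 0.05, with a median log2 fold change of 0.08. Gnb1 was at 0.20, with 513 CPM in PTHrP replicate 2 and 379 to 402 CPM elsewhere, and Gng3 and Gnb3 were at -0.42 and -1.06, Gng3 sharing 398 exon bases with Bscl2 on the opposite strand. Of 10 receptor kinases, arrestins and accessory proteins tested, 0 passed. At an unadjusted p under 0.05, where 8.9% of all tested genes lay, there was Ramp3, which modifies the ligand choice of calcitonin-family receptors. It had 13.6, 13.1 and 12.3 CPM in PTHrP, against 10.1, 10.5 and 10.2 CPM in DsRed, with groups apart and a difference of 0.34 (SE 0.10, adjusted p = 0.352), and 101 of its exon bases are shared with the opposite-strand pseudogene Gm11978. The receptor kinase genes Grk6 and Grk2 were at 0.10 and 0.08. Without PTHrP replicate 2, Gnb1 was at 0.07, Gnb3 at -2.04, Gng3 at -0.34, Ramp3 at 0.34, Grk6 at 0.11 and Grk2 at 0.10, and 0 genes of these lists passed.

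Regulators of G protein signalling, which switch off Gi and Gq alpha subunits, had negative log2 fold changes in 11 of 13 tested members, with a median of -0.17, against 10844 of 21141 negative over all genes. No member passed. Rgs4 had 39.6, 35.0 and 41.1 CPM in PTHrP, against 51.4, 49.1 and 40.1 CPM in DsRed, which is -0.28 on the log2 scale (SE 0.10, adjusted p = 0.434). DsRed replicate 3 lay among the PTHrP libraries for this gene. Rgs8 and Rgs17 were at -1.12 and -0.25, and Rgs8 shares 70 exon bases with the antisense gene Gm29529. Of 6 genes for ligands of these receptors 3 were tested and 0 passed. Gcg, which encodes glucagon and GLP-1, had 167, 135 and 175 CPM in PTHrP, against 147, 153 and 144 CPM in DsRed (log2 fold change 0.10, adjusted p = 0.782), Gip was at -0.67 and under 0.371 CPM in every library, and Cort was at -0.26. Without PTHrP replicate 2 the estimates were -0.21 for Rgs4, -1.52 for Rgs8, -0.34 for Rgs17, -0.66 for Gip and -0.05 for Cort. Gcg was then at 0.21 (SE 0.05, adjusted p = 0.0667), against 0.10 with all libraries, and 0 genes of these lists passed.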

How the data were processed

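The authors deposited a table of raw read counts by gene. According to the submitters' processing notes the reads went through bcl2fastq, STAR and featureCounts 2.0.3 of Subread on GRCm38. Not given in the sources used here are the annotation, the strand setting and the multi-mapping rule.

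The table had 55774 entries, and 287 repeats of an identifier were removed. Groups and replicate numbers come from the library titles. Chi-square values per gene over pairs of libraries, which compare them with counting error, were 8.25 to 56.5, so every pair differed by more than that error. All 6 libraries were kept. Genes were filtered with filterByExpr, scaled with TMM factors and tested with the quasi-likelihood F-test of edgeR 4.0.16 (R 4.3.3), robust, with group alone, two-sided, adjusted over 21141 genes. SE was approximated from the coefficient and its F value, and 95% intervals use it. RPKM uses the union of exons in GENCODE M21 (GRCm38). DESeq2 1.42.0 and limma 3.58.1 served as alternatives. Likeness used log2 CPM with a prior count of 2 and genes of a mean of at least 1.

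The receptors and lists were chosen with earlier results of these data known. Named genes are the 8 receptors, Pthlh, the 3 genes of each list with the smallest p, and the 3 nearest in profile to the receptors with the smallest p. Gabbr2, Crhr1, Adra2c, Pth1r, Oxtr, Gnai2, Gnai3, Gna11 and the ratios were chosen after their values were seen. The steps were tested on simulated data of 20081 genes, where edgeR recovered 12% of the genes given a change of 1.25-fold and 60% of those given 1.5-fold. It recovered 94% of those with 2-fold and 98% of those with 4-fold changes, and 13 unchanged genes were called. Each fold was given to 50 genes with a mean above 1 CPM. Recovery at lower levels or with fewer changed genes was not simulated.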

Additional observations from a re-analysis of the deposited data

How the results depend on the processing

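The fold changes of Sstr3, Ffar1, Gipr, Glp1r and Gpr119 kept their direction in all 16 alternatives, and no receptor passed in any of them. Adra2a, close to 0, was at -0.0017 with upper-quartile factors, -0.0038 with a minimum of 1 CPM in 3 libraries and -0.0017 with library quality weights, and ranged from -0.017 to 0.026 with 1 library left out. Chrm3 ranged from -0.019 to 0.186 there. Over all genes 9 passed in the main analysis, 14 with library sizes alone, 220 without the filter, 136 with DESeq2 and 188 with quality weights, and 2 to 213 with 1 library left out (213 without PTHrP replicate 2). Of the other receptor and G protein genes 0 passed, apart from the oxytocin receptor gene Oxtr without PTHrP replicate 2, so the range was 0 to 1. The Gcgr ratio ranged from 0.354 to 1.74 with 1 library left out.

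Same-numbered deviations correlated at 0.023, -0.11 and 0.025, against -0.15 to 0.13 between unlike replicate numbers. No pairing by number was seen, but these values cannot show whether samples were prepared in pairs. With the number as a replicate block 7 genes and no receptor passed (Sstr3 -0.24, Ffar1 -0.17). With the longest transcript as length, Chrm3 was at 3.12 RPKM in PTHrP and 2.97 RPKM in DsRed, and the order of the 8 was as before. With 3 libraries a group, the spread between them, and for Gcgr the depth, limit what can be seen in the low receptors.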
